A study of Homo sapiens with 6 samples.

Results

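The genes described here were 10 genes of fibroblast growth factor (FGF) signaling: the ligand genes FGF2, FGF4, FGF8 and FGF13, the receptor genes FGFR1, FGFR2, FGFR3, FGFR4 and FGFRL1, and the adaptor gene FRS2. They were chosen by name, with earlier results of these data known, and all 10 were found among the 60719 genes in the tables. The libraries came from H1 and H9, established lines of human embryonic stem cells that are grouped here as human pluripotent stem cells (hPSC). The cells grew on Matrigel in StemFlex medium, either in simulated microgravity (sµg, 3 libraries) or in normal gravity (1g, 3 libraries), and were harvested in the study's protocol after 96 h. Simulated microgravity was made with a clinostat, which turns the culture vessel continuously about an axis at right angles to gravity, while the 1g cultures stood still. The labels name both lines for every library and do not say which line, or mix of lines, each library held. They also do not name separate cultures, so each p-value below measures only the spread between these libraries, which may be technical. The comparison asks which FGF genes differ in their RNA between sµg and 1g.

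FGF ligands bind a tyrosine kinase receptor together with heparan sulfate, a sugar chain of the cell surface. The paired receptors phosphorylate each other and the docking protein FRS2, which hands the signal to RAS and to the kinases RAF, MEK and ERK. In human pluripotent cells the pathway is known for its part in self-renewal, and culture media for such cells as a rule supply FGF2. A different branch of the family, the FGF homologous factors, stays inside the cell and does not act through these receptors.

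The libraries held between 19971097 and 28506848 RSEM expected counts, and every 1g library was deeper than every sµg library. The third sµg library stood apart from its group. The spread of its counts against the other 2 sµg libraries was 5.91 and 6.20 times sampling noise (chi-square per degree of freedom over genes), against 1.66 between those 2 and 1.83 to 2.25 among the 1g libraries. Results are therefore also given without it where it matters. Of 11 markers of pluripotent cells, all were detected above the filter, and POU5F1, the factor also called OCT4, stood at 2183 ± 8.2 TPM in 1g and 2259 ± 110 TPM in sµg (SD, n = 3). TPM is RSEM's transcript level, which allows for gene length and is scaled to a fixed library total, and CPM is the library-scaled count used in the tests.

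Of the 10 FGF genes, 8 were lower in sµg, 1 was higher and 1 did not pass the test (edgeR quasi-likelihood test, adjusted p under 0.05). The genes that fell were FGF2, FGF4, FGF8, all 4 signaling receptors and FGFRL1, and the gene that rose was FGF13. Among all 16763 genes tested, 33.7% passed the test, with 18.2% lower and 15.5% higher. The median log2 fold change over the 10 genes was -0.35, against 0.01 over all genes tested. In 9 of the 10 the CPM values of the 3 sµg libraries did not overlap those of the 3 1g libraries, a property held by 45.5% of all genes tested. FRS2 was the exception.

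**Figure D1:**
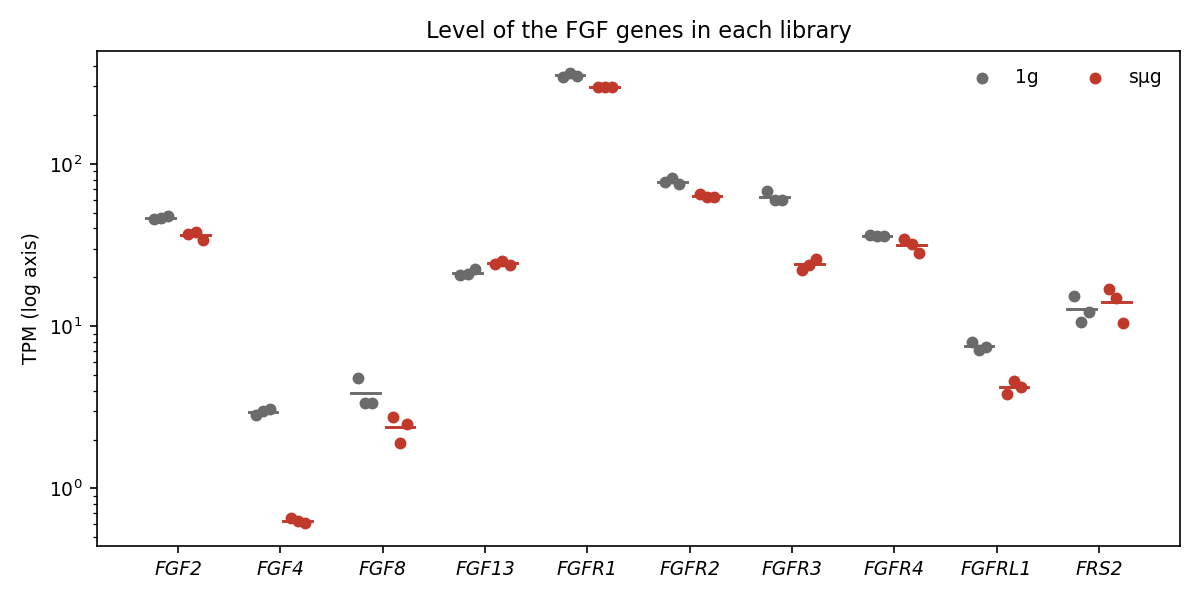
TPM on a log axis (vertical) of each of the 10 FGF genes (horizontal) in the 1g libraries (grey points) and the sµg libraries (red points), with bars at the group means (n = 3). FGFR1 is the most abundant at 297.38 to 362.02 TPM, and FGF4 in sµg lies lowest at 0.61 to 0.66 TPM.

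FGF2, the main FGF of pluripotent cell culture, was the most abundant of the 4 ligand RNAs. Its gene lies at chr4:122826682-122898236 on the plus strand (GRCh38). FGF2 measured 45.51, 46.65 and 47.61 TPM in the 1g libraries and 36.71, 38.26 and 34.09 TPM in the sµg libraries. The groups did not overlap, and the third sµg library was the lowest. The log2 fold change from the counts was -0.34 ± 0.042 (SE, adjusted p = 5.54e-06, edgeR), a 1.27-fold lower level, and it was -0.28 without the third sµg library. FGF2 shares its locus with NUDT6 on the opposite strand, which averaged 5.32 TPM over the 6 libraries. The RSEM default that the study names takes no account of strand, so reads of the shared stretch could not be told apart by strand.

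FGF4 fell the most on the log2 scale of the 10 genes. FGF4 is a ligand of early embryonic cells whose gene, in mouse, is a known joint target of OCT4 and SOX2, and it lies at chr11:69771022-69775341 on the minus strand. It measured 2.84, 2.98 and 3.09 TPM in 1g and 0.66, 0.63 and 0.61 TPM in sµg. In expected counts, these levels were 183, 133 and 161 against 30, 28 and 29. Every sµg library was far below every 1g library, and within each group the values lay close together. Its log2 fold change was -2.23 ± 0.15 (SE, adjusted p = 1.32e-09, edgeR), or 4.71-fold lower, and its adjusted p stayed under the threshold in 14 of 14 alternative settings. On the log2(TPM + 1) scale, which compresses low values, the change was -1.28. The genes for OCT4 and SOX2 did not pass the edgeR test, with log2 fold changes of 0.02 for POU5F1 (adjusted p = 0.784) and 0.01 for SOX2 (adjusted p = 0.941). These are RNA levels only, and any part of OCT4 or SOX2 in the FGF4 difference was not tested.

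FGF8, a ligand of the gastrulating embryo and of the midbrain-hindbrain boundary, was close to the floor of the assay. Its gene lies at chr10:101770109-101780371 on the minus strand. It measured 4.81, 3.35 and 3.37 TPM in 1g and 2.75, 1.89 and 2.50 TPM in sµg, from 68, 32 and 36 expected counts against 22, 18 and 20. The groups did not overlap, but the first 1g library stood well above the other 2. The log2 fold change of -0.94 ± 0.26 (SE, adjusted p = 0.00818, edgeR) became -0.68 without that library, and the adjusted p rose to 0.0896. With DESeq2 the log2 fold change was -0.93 and the adjusted p 0.0646. The negative sign held in 14 of 14 alternative settings and the call in 9.

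FGF13 was the only one of the 10 genes to rise. It encodes a homologous factor that binds voltage-gated sodium channels inside the cell, and its gene spans chrX:138614727-139222777 on the minus strand. It measured 20.75, 20.85 and 22.57 TPM in 1g and 24.04, 25.18 and 23.87 TPM in sµg. All sµg libraries lay above all 1g libraries, by a narrow margin. On the log2 scale the difference was 0.20 ± 0.051 (SE, adjusted p = 0.00607, edgeR), which is 1.15-fold, and it was 0.18 without the third sµg library (adjusted p = 0.00647). When effective gene lengths entered the fit as an offset, the log2 fold change was 0.15 and missed the threshold (adjusted p = 0.137), as did 0.18 with limma on log2(TPM + 1) (adjusted p = 0.0810). The long FGF13 gene overlaps FGF13-AS1 on the opposite strand, at a mean of 4.81 TPM.

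By level, FGF2 came first and FGF13 next, and the ranges of both over the 6 libraries were separate from each other and from FGF8. The ranges of FGF8 and FGF4 over the 6 libraries overlapped, but FGF8 lay above FGF4 in TPM within each condition. In expected counts, which do not allow for length, FGF4 was above FGF8 in all 6 libraries. Within sµg alone, FGF8 at 1.89 to 2.75 TPM lay above FGF4 at 0.61 to 0.66 TPM, while in 1g the lowest FGF8 value of 3.35 TPM was just above the highest FGF4 value of 3.09 TPM.

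**Figure D2:**
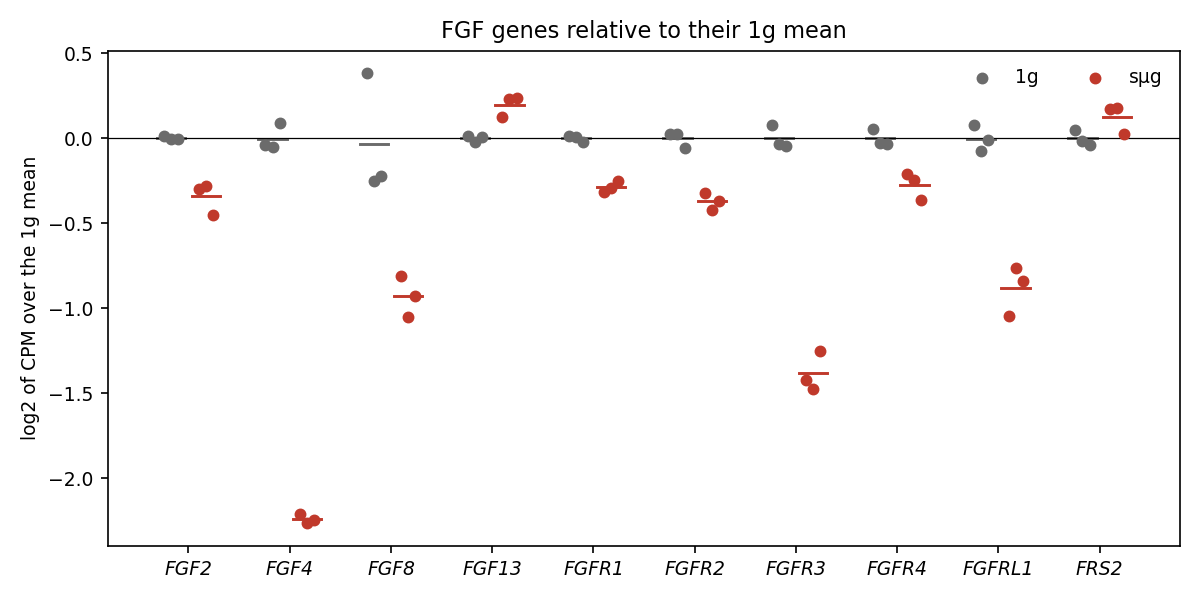
Log2 of each library's CPM over the gene's 1g mean CPM (vertical) for the 10 FGF genes (horizontal), with 1g libraries in grey, sµg libraries in red and bars at the mean of the plotted values (n = 3). FGF4 and FGFR3 lie farthest below the 1g mean, at fitted log2 fold changes of -2.23 and -1.38, FGF13 lies above it, and the FRS2 groups overlap.

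The receptors differ in which ligands they bind through an alternative exon. Part of the third immunoglobulin-like domain of FGFR1, FGFR2 and FGFR3 is encoded by either a IIIb or a IIIc exon. The IIIb form is typical of epithelia and the IIIc form of mesenchyme, and FGF4 and FGF8 act mainly through IIIc forms while FGF2 binds several. The exon pair of FGFR3, the receptor gene that fell the most, is shown because it separates the forms counted below. The exons are given 5′ to 3′ on the strand of the gene, from GRCh38, and capitals mark runs of at least 6 aligned bases that the 2 exons share. FGFR3 lies on the plus strand of chromosome 4, with IIIb at chr4:1802914-1803064 and IIIc at chr4:1803692-1803836.
FGFR3 IIIb exon: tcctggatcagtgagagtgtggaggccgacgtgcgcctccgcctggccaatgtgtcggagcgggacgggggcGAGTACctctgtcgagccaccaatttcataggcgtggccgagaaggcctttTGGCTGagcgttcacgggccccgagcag
FGFR3 IIIc exon: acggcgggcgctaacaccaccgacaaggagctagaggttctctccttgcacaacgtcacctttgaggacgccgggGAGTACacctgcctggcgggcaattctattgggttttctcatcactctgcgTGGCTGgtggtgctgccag

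Aligned end to end, the FGFR3 exons matched at 74 of 154 positions (48.1%), with the shared runs few and short.

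FGFR1, the receptor that dominates in these cells, lies on the minus strand of chromosome 8. It measured 341.22, 362.02 and 349.93 TPM in 1g and 297.45, 297.38 and 298.45 TPM in sµg. In TPM the sµg libraries were nearly equal and all lay below the 1g libraries. In CPM the sµg libraries ran from 589.4 to 616.9. The log2 fold change was -0.29 ± 0.035 (SE, adjusted p = 5.08e-06, edgeR), a 1.22-fold lower level. Other genes that overlap FGFR1 with any signal, LETM2, RPS20P22 and 1 gene without a symbol, averaged from 1.35 to 2.32 TPM, far below it.

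FGFR2, at chr10:121478332-121598458, came next. It measured 77.01, 81.34 and 74.71 TPM in 1g and 64.83, 62.74 and 62.30 TPM in sµg, with no overlap. Its log2 fold change of -0.37 ± 0.039 (SE, adjusted p = 8.21e-07, edgeR) was 1.29-fold.

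FGFR3, at chr4:1793293-1808872, fell the most of the receptors. It is known for activating mutations that shorten the long bones. It measured 67.60, 59.69 and 59.56 TPM in 1g and 22.29, 23.87 and 25.95 TPM in sµg. The highest sµg library was below every 1g library by a wide margin, with the first 1g library the highest and the third sµg library the highest of its group. The log2 fold change was -1.38 ± 0.054 (SE, adjusted p = 1.20e-11, edgeR), or 2.60-fold lower, and over the 14 alternative settings it ran from -1.45 to -1.33 with every call kept. These counts were 4714, 3186 and 3474 against 1230, 1145 and 1371.

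FGFR4, a receptor without the IIIb and IIIc choice, lies at chr5:177086905-177098144 on the plus strand. It measured 36.43, 36.01 and 35.99 TPM in 1g and 34.55, 32.10 and 28.13 TPM in sµg. The groups did not overlap, but in TPM the sµg libraries were spread more widely than the 1g libraries, and the third was the lowest. In CPM the SDs were closer, at 2.3 in 1g and 3.0 in sµg. The log2 fold change from the counts was -0.27 ± 0.049 (SE, adjusted p = 0.000261, edgeR), and it was -0.23 without the third sµg library. With limma on log2(TPM + 1) the log2 fold change was -0.19 and missed the threshold (adjusted p = 0.113), while with the length offset in edgeR it was -0.23 and passed (adjusted p = 0.0320).

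FGFRL1 has no kinase domain and is described as a decoy that binds ligand without passing on the usual signal. Its gene lies at chr4:1009936-1026898 on the plus strand, on the same chromosome arm as FGFR3. It measured 8.01, 7.17 and 7.48 TPM in 1g and 3.83, 4.60 and 4.19 TPM in sµg. The groups were far apart. Its log2 fold change was -0.88 ± 0.087 (SE, adjusted p = 3.46e-07, edgeR), which is 1.84-fold lower, and the call held in 14 of 14 alternative settings.

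Over the 6 libraries, the levels ran FGFR1, FGFR2, FGFR3, FGFR4 and FGFRL1. FGFR1 was separate from FGFR2, and FGFR4 from FGFRL1, but the ranges of FGFR2 and FGFR3 and those of FGFR3 and FGFR4 overlapped. Within each condition FGFR2 lay above FGFR3, at 74.71 to 81.34 TPM in 1g and 62.3 to 64.83 TPM in sµg. The order of FGFR3 and FGFR4 differed by condition: FGFR3 at 59.56 to 67.60 TPM lay above FGFR4 at 35.99 to 36.43 TPM in 1g, and at 22.29 to 25.95 TPM it lay below FGFR4 at 28.13 to 34.55 TPM in sµg.

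The TPM of the 4 signaling receptors summed to 522.26, 539.06 and 520.19 in the 1g libraries and to 419.12, 416.09 and 414.83 in the sµg libraries. The share of FGFR3 in that sum was 12.9%, 11.1% and 11.4% in 1g and 5.32%, 5.74% and 6.26% in sµg. FGFR1 held 65.3% to 67.3% in 1g and 71.0% to 71.9% in sµg, so its share was higher in every sµg library although its own level was lower. The FGFR2 share overlapped between the groups, at 14.4% to 15.1% and 15.02% to 15.5%. In bulk RNA, fewer cells of a type and less RNA per cell cannot be told apart, here or for any gene below.

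**Figure D3:**
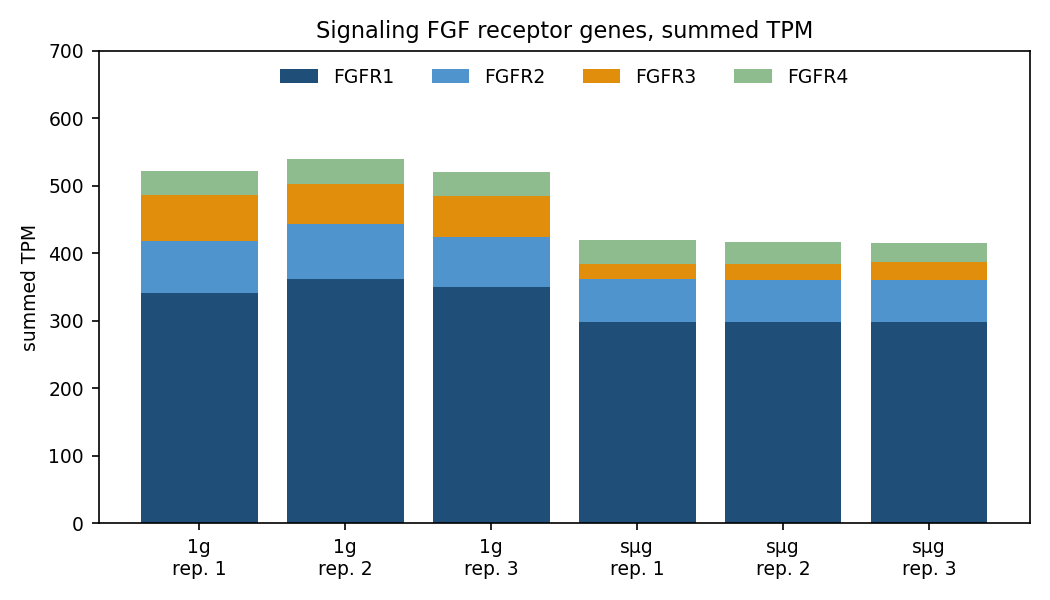
Summed TPM (vertical, from 0) of FGFR1, FGFR2, FGFR3 and FGFR4 as stacked bars for each of the 6 libraries (horizontal). The bars reach 520.19 to 539.06 TPM in 1g and 414.83 to 419.12 TPM in sµg, and the FGFR3 segment narrows from 59.56 to 67.60 TPM to 22.29 to 25.95 TPM.

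Receptor transcripts were split by exon, using the transcripts that carry each exon and their TPM. The IIIc form was the major one of all 3 receptors in all 6 libraries. For FGFR1 it took 98.1% ± 0.55 of IIIb plus IIIc in 1g and 97.5% ± 0.22 in sµg (SD, n = 3, exact permutation p = 0.2). FGFR2 gave 88.9% ± 2.0 and 90.2% ± 2.8 (SD, n = 3, exact permutation p = 0.5), and FGFR3 gave 91.2% ± 1.3 and 94.5% ± 3.2 (SD, n = 3, exact permutation p = 0.2). All 3 pairs of ranges overlapped, and with 3 libraries against 3 the two-sided exact test cannot give a p below 0.1. The TPM in IIIc transcripts of FGFR3 went from 43.78 to 48.21 in 1g to 17.55 to 18.96 in sµg, and that in IIIb transcripts from 3.83 to 4.77 to 0.39 to 1.79, so both forms were lower in every sµg library. The FGFR3 difference of 3.27 percentage points became -0.67 when only transcripts with the protein-coding label were used, so its direction is not settled. It also moved with single libraries, to 1.60 points without the second sµg library and 4.82 without the third. The splicing regulators ESRP1 and ESRP2, which favor IIIb exons, did not pass the test, with log2 fold changes of 0.10 (adjusted p = 0.0714) and 0.01 (adjusted p = 0.880).

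A second choice in FGFR1 and FGFR2 adds or drops a valine and a threonine, called VT, beside the membrane where FRS2 docks. The last 60 bases of the longer FGFR2 exon, at chr10:121515117-121515176 on the minus strand (GRCh38), show this choice, with capitals on the 6 bases that only the VT+ form carries.
FGFR2 transmembrane exon, last bases: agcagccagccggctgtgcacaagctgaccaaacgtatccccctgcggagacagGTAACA
Only transcripts that carry this transmembrane exon, in its longer or shorter form, were counted. Of their TPM for FGFR1, those with VT took 81.0% ± 1.8 in 1g and 83.7% ± 2.5 in sµg (SD, n = 3, exact permutation p = 0.2). For FGFR2 the VT+ share was 72.1% ± 1.9 in 1g and 69.4% ± 1.9 in sµg (SD, n = 3, exact permutation p = 0.2). Both pairs of ranges overlapped. Transcripts that keep the exon of the first immunoglobulin-like domain were set against those that skip it, leaving out other forms. Their share was 97.8% and 96.9% for FGFR1 and 76.3% and 75.2% for FGFR2, in 1g and sµg. These ranges overlapped too (exact permutation p = 0.2 and 0.8). The VT and first-domain shares were added after the tables had been seen.

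**Figure D4:**
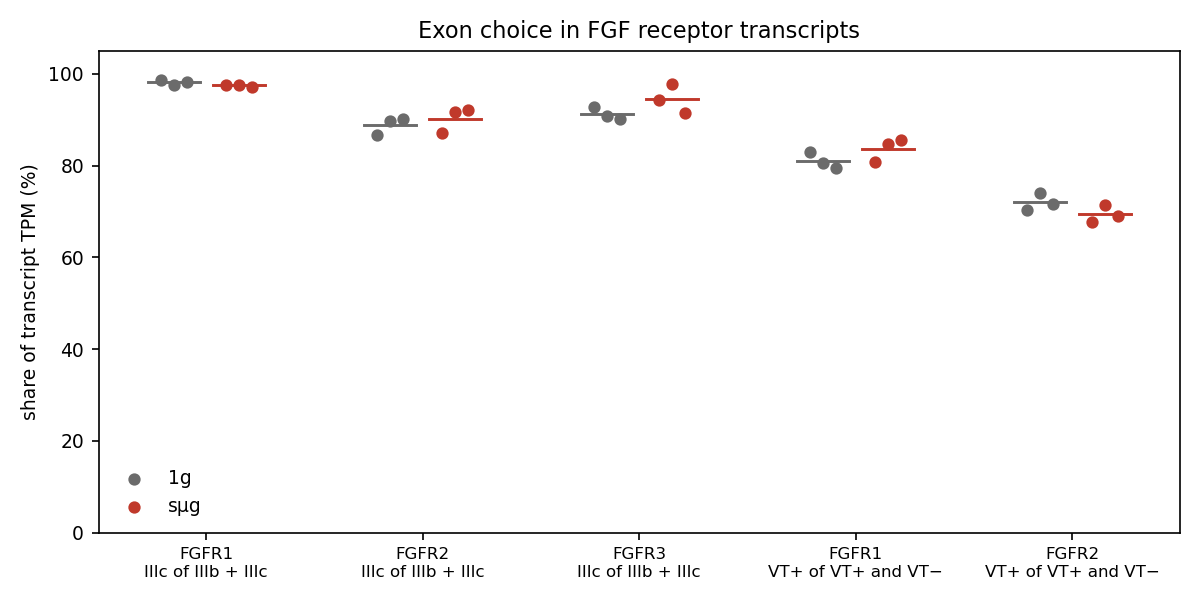
Share of TPM in percent (vertical, from 0) for each receptor (horizontal), as IIIc of IIIb plus IIIc or as VT+ of VT+ and VT−. The 1g libraries are in grey and the sµg libraries in red, with bars at the means (n = 3). The 2 groups overlap for every receptor, and IIIc lies at 86.6% or above in every library.

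Fewer calls were made on single transcripts than on genes. The 10 genes had 139 annotated transcripts, of which 65 passed the filter, and 5 of the 65 were lower in sµg while 0 were higher (edgeR, adjusted p under 0.05). Of all 53807 transcripts tested, 1.76% passed the test and 1.29% were lower. The 5 were FGF4-201, FGFR1-209, FGFR3-205, FGFR3-208 and FGFRL1-201, all of them protein-coding. FGFR3-205, the main FGFR3 transcript and a IIIc form, had counts of 3666, 2599 and 2770 in 1g and of 1010, 947 and 1042 in sµg. Its log2 fold change was -1.38 ± 0.044 (SE, adjusted p = 0.000364, edgeR), and FGFR3-208, another IIIc form, gave -1.23 ± 0.16 (SE, adjusted p = 0.0262, edgeR). FGF4-201 gave -2.24 and FGFRL1-201 gave -0.89, close to the values of their genes. With any 1 library left out, 1 to 4 FGF transcripts were called, FGFR3-205 each time, and with a replicate block 0 were called. FGFR1-209, a IIIc form with VT that held 35.6% of FGFR1 TPM in 1g and 35.7% in sµg, gave -0.28 (adjusted p = 0.0348, edgeR).

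No FGF transcript passed the test for its share of its gene. Of 62 transcript shares tested, 0 passed (diffSpliceDGE in edgeR, adjusted p under 0.05), the smallest unadjusted p was 0.0752, and limma's diffSplice also called 0. Without the third sµg library 1 share passed, that of FGFR1-206, which had 0 counts in the second 1g library and in both remaining sµg libraries. Among all 48529 shares tested, 0.27% passed. FGFR3-205 held 64.0% of FGFR3 TPM in 1g and 65.8% in sµg. FGF13-201 held 91.4%, 91.1% and 85.4% of FGF13 TPM in 1g and 97.8%, 96.5% and 97.4% in sµg. Its share did not pass the test (unadjusted p = 0.876, edgeR), which for FGF13 held only 2 transcripts, FGF13-201 and FGF13-202. With the other FGF13 transcripts filtered out, the test could not measure this difference in TPM share. Of the minor FGF13 transcripts, FGF13-202 was tested and did not pass (log2 fold change 0.12, adjusted p = 0.838, edgeR), while FGF13-208 and FGF13-204 had too few counts to test. FGF13-208 had 13.09, 11.47 and 30.80 expected counts in 1g and 0, 2.92 and 0 in sµg. FGF13-204, singled out after its values were seen, had 9.51, 6.86 and 12.42 in 1g and 0 in each sµg library. FGFR1 had the lowest share in protein-coding transcripts of the 4 signaling receptors, 50.7% to 54.2% in 1g and 49.3% to 51.7% in sµg, the rest being retained-intron and other forms.

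FRS2, the docking protein of the receptors, lies at chr12:69470349-69579793 on the plus strand. It measured 15.28, 10.58 and 12.29 TPM in 1g and 17.02, 14.86 and 10.42 TPM in sµg. The groups overlapped, and in TPM the third sµg library was the lowest of all 6. In CPM it was the lowest of sµg at 40.3, while the 1g libraries stood at 41.0, 39.2 and 38.6. The FRS2 log2 fold change of 0.12 ± 0.053 (SE, adjusted p = 0.0840, edgeR) did not pass the test. Without the third sµg library it was 0.17 and passed (adjusted p = 0.00581), so the call for FRS2 depends on that library.

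The promoter of FGFR3, the receptor gene with the largest fall, is shown for its base composition. It is the stretch of 250 bases before the start of the gene, chr4:1793043-1793292 on the plus strand (RefSeq, GRCh38.p14), and capitals mark the GC box letters GGGCGG or, on the other strand, CCGCCC.
FGFR3 promoter: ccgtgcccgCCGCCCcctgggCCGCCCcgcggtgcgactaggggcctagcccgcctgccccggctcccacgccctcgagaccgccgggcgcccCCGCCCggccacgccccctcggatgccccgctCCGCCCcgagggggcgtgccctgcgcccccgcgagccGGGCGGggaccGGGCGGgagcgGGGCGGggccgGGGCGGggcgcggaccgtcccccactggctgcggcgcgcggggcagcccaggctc
It was 86.8% G and C, against a median of 58% over 35116 promoters of the same length, and it held 8 GC boxes and no TATAAA on either strand. GGGCGG occurred in 42.6% of all these promoters and TATAAA in 10.7%. Promoters were matched for 7 of the 10 genes. FGFR4 held 7 GC boxes, FGFRL1 held 4, and FGF2, FGFR2 and FRS2 held 3 each. FGF13 held 0 GC boxes and 1 TATAAA. FGF4, FGF8 and FGFR1 were not matched. These letters describe the windows and are not evidence of a site in use.

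Around these genes, 8 lists of pathway genes were read in the same test. Of their 91 genes, 77 were tested, and 17 were higher and 21 lower in sµg. Together that is 49.4% of those tested, beside 33.7% of all genes, with a median log2 fold change of 0.01. With DESeq2 the counts were 12 and 17, beside 23.2% of all genes.

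Of 18 other FGF ligands, 8 were tested, and 1 rose and 2 fell, beside 15.5% higher and 18.2% lower among all genes tested. The 18 summed to 39.75 to 40.77 TPM in 1g and 34.32 to 40.25 TPM in sµg. FGF19, named after its values were seen, was the highest, at a mean of 13.8 TPM in 1g and 13.6 TPM in sµg. It did not pass the test (log2 fold change -0.06, adjusted p = 0.574, edgeR). FGF1 rose from 0.727 ± 0.33 to 1.31 ± 0.53 TPM (SD, n = 3), with a log2 fold change of 0.91 (adjusted p = 0.00908, edgeR), while DESeq2 called no member of the list higher. FGF21, a metabolic hormone, fell from 2.32 ± 0.35 to 0.993 ± 0.29 TPM (SD, n = 3), by 1.19 on the log2 scale (adjusted p = 0.00482). FGF11, another homologous factor, fell by 0.24 (adjusted p = 0.0112). DESeq2 called 1 member of the list lower.

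Among binding proteins and co-receptors, 6 of 9 were tested, and 2 rose and 1 fell, beside 15.5% higher and 18.2% lower among all genes tested. ANOS1, a secreted heparan sulfate binding protein that enhances FGFR1 signaling, rose from 26.2 ± 1.2 to 37.9 ± 2.3 TPM (SD, n = 3), by 0.49 on the log2 scale (adjusted p = 9.89e-08, edgeR). FGFBP3, which releases FGFs from the matrix, rose by 0.36 (adjusted p = 0.000619). FLRT3, a membrane protein that binds FGF receptors, fell by 0.96 (adjusted p = 0.000376) at about 1 TPM.

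Of 17 heparan sulfate enzymes, 16 were tested, and 2 rose and 6 fell, beside 15.5% higher and 18.2% lower among all genes tested. SULF2, which removes 6-O-sulfates from heparan sulfate outside the cell, fell from 18.4 ± 0.38 to 10.5 ± 1.1 TPM (SD, n = 3), by 0.84 on the log2 scale (adjusted p = 2.04e-09, edgeR). HS6ST1, which adds the 6-O-sulfates, fell by 0.38 (adjusted p = 2.11e-06), so enzymes with opposite actions on the same position were both lower. GLCE, the epimerase of the chain, rose by 0.48 (adjusted p = 5.54e-05).

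Of 11 receptor adaptors, all tested, 2 rose and 1 fell, and the same numbers held for the 11 genes of the RAS, RAF, MEK and ERK core. That is 3 of 11 in each list, beside 33.7% of all genes tested. SHC1 rose by 0.23 (adjusted p = 6.89e-05, edgeR) and SOS1, which loads RAS with GTP, by 0.28 (adjusted p = 0.00399), while CBL, a ubiquitin ligase of activated receptors, fell by 0.15 (adjusted p = 0.00738). In the core, MAP2K2 fell by 0.16 (adjusted p = 0.00618), and HRAS rose by 0.20 (adjusted p = 0.0362). DESeq2 called no gene of the core higher.

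Feedback inhibitors and transcription targets of ERK split in both directions. Of 11 feedback inhibitors, 4 rose and 4 fell, beside 15.5% higher and 18.2% lower among all genes tested. SPRED2, an inhibitor of RAF activation, fell from 18.9 ± 0.36 to 6.64 ± 0.63 TPM (SD, n = 3), by 1.48 on the log2 scale (adjusted p = 3.98e-13, edgeR). DUSP6, the cytoplasmic phosphatase of ERK, rose from 57.8 ± 1.4 to 95.3 ± 1.3 TPM (SD, n = 3), by 0.75 (adjusted p = 2.18e-11), while DUSP4, a nuclear phosphatase, fell by 0.88 (adjusted p = 7.10e-07). All 9 transcription targets passed the test, 3 higher and 6 lower, beside the same shares of all genes. The 3 that rose were the ETS factors ETV1, by 0.58 (adjusted p = 9.47e-09), and, named after their values were seen, ETV5 by 0.26 and ETV4 by 0.15 (adjusted p = 0.00148 and 0.0154). CCND1, or cyclin D1, fell from 107.9 ± 3.4 to 51.8 ± 2.7 TPM (SD, n = 3), by 1.03 (adjusted p = 1.10e-13), and the immediate early gene EGR1 fell by 0.52 (adjusted p = 3.56e-07). Of 5 regulators of FGFR splicing, PTBP2 alone passed, beside 33.7% of all genes tested. It rose by 0.37 (adjusted p = 8.38e-06).

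**Figure D5:**
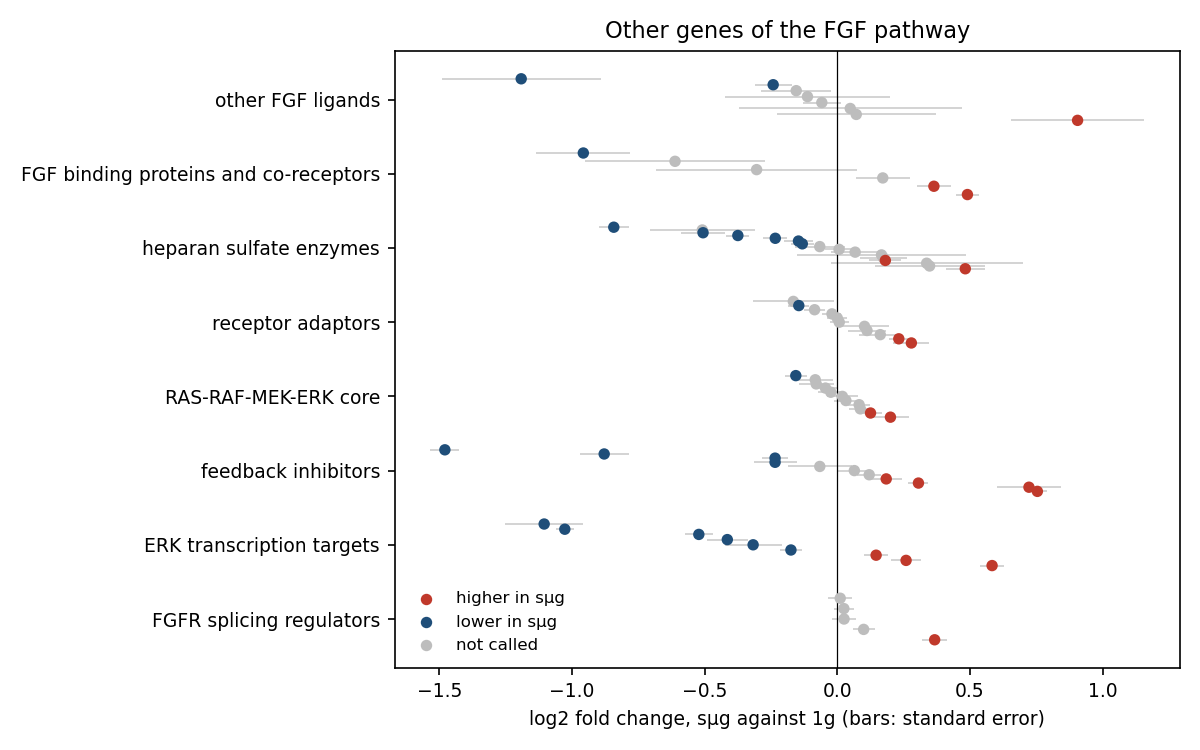
Log2 fold change of sµg against 1g (horizontal, bars are standard errors) for the 77 tested genes of the 8 pathway lists (vertical), in red where higher, blue where lower and grey where the edgeR test was not passed. The adaptors and the RAS, RAF, MEK and ERK core lie near 0, while feedback inhibitors run from SPRED2 at -1.48 to DUSP6 at 0.75.

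Several markers of other cell types also fell in sµg. Among all genes tested, 18.2% were lower and 15.5% higher. With DESeq2, 7 trophectoderm and amnion, 2 neural and midbrain-hindbrain and 3 primitive streak and mesendoderm markers were lower. Of 10 trophectoderm and amnion markers, 8 were tested and 7 fell, and their summed level went from 86.3 to 95.8 TPM in 1g to 46.2 to 51.3 TPM in sµg. TFAP2A fell from 11.9 ± 1.1 to 1.76 ± 0.18 TPM and GATA3 from 5.76 ± 0.72 to 0.223 ± 0.057 TPM (SD, n = 3), while CGA was at 0 in both groups. Of 14 neural and midbrain-hindbrain markers, 5 were tested and 3 fell, and the sum went from 9.81 to 11.0 TPM to 3.59 to 4.32 TPM. Among them GBX2, a hindbrain-side factor of the boundary that FGF8 patterns, fell from 5.48 ± 0.35 to 1.3 ± 0.50 TPM and PAX6 from 2.63 ± 0.74 to 0.653 ± 0.21 TPM (SD, n = 3), and NEUROG2 was the third. Of 15 primitive streak and mesendoderm markers, 7 were tested and 4 fell, with a sum of 10.8 to 13.5 TPM in 1g and 6.5 to 6.82 TPM in sµg. HAND1 stood at 2.35 ± 0.59 and 0.0567 ± 0.098 TPM, GATA6, TBX6 and WNT3 were the other 3 that fell, and TBXT, a defining marker of the streak, was under the filter at 0.29 and 0.23 TPM.

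Of 11 pluripotent markers, 4 fell, 0 rose and 7 did not pass the test, beside 18.2% lower and 15.5% higher among all genes tested. With DESeq2, 3 were lower, beside 23.2% of all genes called in either direction. The summed level was 6094 to 6140 TPM in 1g and 5753 to 5812 TPM in sµg. DNMT3B, a DNA methyltransferase, fell from 802.8 ± 8.4 to 582.1 ± 24 TPM and LIN28A, an RNA-binding protein, from 1029 ± 20 to 816.0 ± 72 TPM (SD, n = 3), and SALL4 and UTF1 were the other 2. Of 8 fibroblast markers, 4 were tested, of which COL1A1, COL1A2 and PDGFRA fell and THY1, which pluripotent cells also carry, rose. Their sums overlapped at 388.3 to 404.7 and 377.4 to 404.1 TPM, and the fibroblast genes DCN, LUM and COL3A1 were at 0.08 TPM or less in both groups. The part of these marker changes, of depth and of the third sµg library in the FGF values was not tested, beyond the values given without that library.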

How the data were processed

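Poly(A) RNA libraries (3 of sµg and 3 of 1g) were sequenced by the authors, aligned to GRCh38.p13 with STAR 2.7.7a and quantified with RSEM 1.3.3 (submitters' processing notes). The deposited gene and transcript tables hold RSEM expected counts and TPM per library, which the authors did not scale across libraries, and effective lengths. The study ran STAR with different settings, and no source used here says which gave these tables. The kit keeps strand, but RSEM's default, which the study names, counts without strand. RSEM divides reads shared by several transcripts by a model, so transcript values carry an error that counts do not show.

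Expected counts were rounded to whole numbers, filtered with filterByExpr (minimum count 10, total 15), scaled by TMM and tested with edgeR 4.0.16 (robust quasi-likelihood) in R 4.3.3. P-values were adjusted by Benjamini-Hochberg over all 16763 genes, 53807 transcripts or 48529 transcript shares, at 0.05. CPM values were computed with TMM. Library totals ran from 19971097 to 28506848, and the biological coefficient of variation was 3.96%. Receptor exon shares were compared by two-sided exact permutation. The script was tested on simulated data. Alternatives were DESeq2 1.42.0, RLE scaling, other filters, a length offset, limma 3.58.1 on log2(TPM + 1) and log2(TPM + 0.1), a replicate block, each library left out and a threshold of 0.01.

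Symbols were matched through GENCODE. The FGF genes and gene lists were chosen with earlier results of these data known. Named from each list were the 3 called genes with the smallest adjusted p, for marker lists also the 3 with the highest TPM, and for the FGF genes the transcripts with at least 5% of TPM, at most 4 per gene. Other genes named, such as SOX2, ESRP2, UTF1, PDGFRA, CGA, TBXT and DCN, were picked after their values were seen. XIST and Y-linked genes are not reported. Values of 1 further gene that this rule names, and some exon sequences, are not reported here.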

Additional observations from a re-analysis of the deposited data

How the results depend on the processing

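All 10 FGF genes kept the direction of their log2 fold change in 14 of 14 alternative settings. Calls were lost for FGF8 with DESeq2, the length offset, both limma fits and without the first 1g library (adjusted p from 0.0509 to 0.0984), for FGF13 with the length offset and both limma fits (0.0810 to 0.137) and for FGFR4 with both limma fits (0.112 and 0.113). The FGF genes called higher numbered 1, and 0 with the length offset and both limma fits. Leaving out 1 library at a time gave 1 to 2, the 2 without the third sµg library, where FRS2 joined FGF13. FGF genes called lower numbered 6 to 8. Over the pathway lists, the 21 lower calls became 8 in both limma fits.

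Of all genes, 5648 were called, and 3106, 2954 and 2924 with the length offset and with limma on log2(TPM + 1) and log2(TPM + 0.1). Higher calls went from 2591 to 1242, 1495 and 1480 in that order, and to 1587 at a threshold of 0.01. Lower calls went from 3057 to 1864, 1459 and 1444. Of all transcripts, 948 were called, 1431 with at least 10 counts in every library and 113 to 568 with 1 library left out. The FGF transcripts called were 5, and 1 to 4 with 1 library left out. Among those left-out fits FGFR3-205 was called each time, and FGF4-201 each time except without the first 1g library. Transcript shares called were 131, and 44 with at least 10 counts in every library, 407 with limma's diffSplice and 166 to 212 with 1 library left out. For FGF shares the count of 0 became 1 without the third sµg library, for FGFR1-206, which had 0 counts in both remaining sµg libraries and in the second 1g library. The FGFR3 IIIc difference of 3.27 percentage points was -0.67 over protein-coding transcripts alone. The causes of these shifts were not tested.

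Libraries of the 2 groups share the numbers 1 to 3. The study's methods call the controls matched but do not say by what, or which library goes with which. Deviations from the group means correlated at 0.0041, 0.0414 and 0.0126 for equal numbers and at -0.0286 to 0.0172 for unequal numbers. All were small, and the numbers were not taken as pairs. With the replicate block, 5676 genes were called, and the calls of the FGF genes were 8 lower and 1 higher as before. Transcript calls fell to 10, with 0 in FGF genes, and share calls to 62.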
